A study of Mus musculus with 4 samples.

Results

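The neuregulin ligands Nrg1, Nrg2, Nrg3 and Nrg4 and the receptors Erbb2, Erbb3 and Erbb4 form 1 signalling family, and they are described here cell class by cell class in the young mouse forebrain. The 7 genes were chosen by symbol, and each matched 1 of the 43348 genes in the count matrices. Neuregulins carry an EGF-like domain, are mostly made as membrane-bound precursors that proteases release, and act on receptor tyrosine kinases of the ErbB family. Erbb3 and Erbb4 bind neuregulins, while Erbb2 binds no known ligand and pairs with the other receptors, and Erbb3 has little kinase activity of its own. In the forebrain, Erbb4 is known as a receptor of GABAergic interneurons with a part in their migration and in the excitatory synapses they receive, and Erbb3 as a receptor of the oligodendrocyte and Schwann cell lineages.

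Single-cell 3' transcript counts were measured in TdTomato-positive cells sorted from frontal cortex and hippocampus of male and female mice at postnatal day 18 to 20. All animals carried Cre driven by Nkx2-1, a gene of progenitors of the medial ganglionic eminence (MGE), and the Ai14 reporter, so the reporter marks cells whose ancestors expressed Nkx2-1. WT animals had intact Grin1 alleles (Grin1 wt/wt) and null littermates had both alleles floxed (Grin1 fl/fl), so that Grin1, the obligatory subunit of NMDA receptors, is deleted in the same lineage. Each region and genotype was deposited as 1 matrix that pools its libraries, giving 3 WT and 2 null libraries in cortex and the same in hippocampus. Libraries pooled several animals. The methods give how many were processed together and how many of each genotype were used in all, but which animals made each library and the strain are not given in the sources used here, and the p-values below measure the spread between libraries. Because Cre acts in progenitors, oligodendrocytes and other cells of the lineage can carry the deletion too.

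Depth differed widely among the 10 libraries. Median unique molecular identifier (UMI) counts per kept cell were 7098, 2903 and 6519 in WT cortex replicates 1 to 3, 6641 and 8224.5 in null cortex replicates 1 and 2, 4411, 1479 and 5741 in WT hippocampus, and 8839 and 9508 in null hippocampus. Kept cells numbered 1277, 3830 and 3930 in WT cortex, 177 and 2578 in null cortex, 2219, 4599 and 3135 in WT hippocampus, and 401 and 4055 in null hippocampus. Library totals ran from 1488601 UMIs in null cortex replicate 1 to 47338167 in null hippocampus replicate 2. WT hippocampus replicate 2 was the shallowest library per cell and null cortex replicate 1 the smallest, and null cells of the hippocampus were deeper than WT cells in every pairing of libraries. No pair of libraries shared more than 12 cell barcodes.

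Clustering of the cells, with the 7 family genes kept out of the features used, gave 35 clusters, of which 31 could be named by their markers and fell into 13 classes. The interneuron classes held 5043 SST-like, 2228 PVALB-like, 2162 NGFC-like (neurogliaform) and 1540 TH-like cells, the last being somatostatin-rich clusters led by Th or Crh. The oligodendrocyte lineage held 1039 precursors (OPC), 2633 newly formed and 8020 mature oligodendrocytes. A class of 337 cells was named by cell cycle genes only. It is called cycling precursors below, though its place in the lineage was not tested. Smaller classes were 988 glutamatergic neurons, 431 astrocytes, 262 microglia, 190 choroid plexus cells and 94 endothelial cells, and glutamatergic neurons, microglia and endothelial cells are not known as descendants of the MGE. The classes are called by these names below, without "like".

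The class names were checked against their markers. In pooled WT cells, in CPM (a gene's UMIs for every 1000000 UMIs of the same cells), Sst stood at 16112 in SST, 7322 in TH and 909 in PVALB cells, Pvalb at 1599 in PVALB and 243 in TH cells, and Lamp5 at 495 in NGFC cells. Pdgfra stood at 913 in OPCs, Bmp4 at 235 in newly formed and Mog at 4259 in mature oligodendrocytes, and Gad1 ran from 582 in SST to 2246 in NGFC cells against 22.5 in OPCs. The SST cluster led by Myh8, Myh4 and Nr2f2 is weaker. None of the SST markers and 1 NGFC marker, Reln, was among its 10 leading genes. Reln was not counted as a leading NGFC marker, a rule set from these data, where it was higher in SST clusters. Counted, it would have kept this cluster from being named SST. Tests on SST cells are therefore also given without the Myh8 cluster where that matters. For the tests the SST and TH classes were added together, after the study's own grouping, while levels are given for each.

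Grin1 was examined first as a check on the genotype labels. In SST and TH cells together it stood at 153, 254 and 233 CPM in WT cortex, at 36.7 and 28.1 in null cortex, at 120, 176 and 158 in WT hippocampus, and at 23.3 and 22.1 in null hippocampus. Every null library lay below every WT library, and the same held in PVALB and NGFC cells. In glutamatergic neurons, which were not tested, Grin1 stood at 141, 242 and 177 CPM in WT cortex and 44.0 in null cortex replicate 2 (34 UMIs), and at 219 in WT hippocampus replicate 3 and 98.04 in null hippocampus replicate 2 (21 UMIs), the other libraries holding fewer than 20 of these cells. The edgeR log2 change, null minus WT, in SST and TH cells was -2.74 in cortex (SE 0.331, adjusted p = 0.0324) and -2.73 in hippocampus (SE 0.331, adjusted p = 0.0346), and in PVALB cells -2.53 (SE 0.416, adjusted p = 0.0359) and -2.88 (SE 0.422, adjusted p = 0.0698). A gene was called at an adjusted p under 0.01, a line that Grin1 did not pass here with edgeR, while DESeq2 called it in both classes and both regions. In mature oligodendrocytes Grin1 was too low to show a deletion, at no more than 7.82 CPM in any WT library, with edgeR log2 changes of -2.30 in cortex (SE 1.21) and -1.13 in hippocampus (SE 1.02), both with an adjusted p of 1. Where the 3' tags lie relative to the floxed part is not given in the sources used here, and Grin1 overlaps a gene on the other strand, Grin1os.

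Among the ligands, Nrg1, whose isoforms differ in how they are anchored and released, lies on chromosome 8 (GRCm38, 31814551 to 32884029, minus strand, ENSMUSG00000062991.6). In TH cells it stood at 7.0, 11.2 and 10.1 CPM in WT cortex, 0 and 2.5 in null cortex, 1.9, 23.8 and 11.1 in WT hippocampus, and 3.6 and 6.9 in null hippocampus. In SST cells the values were 4.5, 7.3 and 7.2 in WT cortex, 4.2 and 5.4 in null cortex, 3.6, 6.2 and 7.5 in WT hippocampus, and 4.1 and 3.3 in null hippocampus. Levels were low everywhere, and the highest TH value rests on 2 UMIs. The mean over the WT libraries was 12.8 CPM in OPCs (SD 8.12, 18 UMIs in all), 10.8 in TH (SD 7.25), 6.06 in SST (SD 1.63), 3.91 in cycling precursors (4 UMIs), 3.69 in glutamatergic (SD 3.68), 1.70 in newly formed oligodendrocytes (SD 1.94), 0.691 in PVALB (SD 0.836), 0.506 in NGFC (SD 0.959) and 0.074 in mature oligodendrocytes (SD 0.12), with no UMI in astrocytes and microglia. The first 5 of these overlap one another library by library. Within the TH class, the cluster led by Crh and Tac2 held 14.5 CPM in pooled WT cells (95% Poisson interval 11.3 to 18.4) and the cluster led by Th and Nr4a2 held 2.5 (1.1 to 4.8). These intervals and those below cover counting error only.

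With SST and TH cells added together, Nrg1 was at 5.3, 8.1 and 8.0 CPM in WT cortex and 3.3 and 4.3 in null cortex, and at 3.1, 6.9 and 8.6 in WT hippocampus and 4.0 and 4.0 in null hippocampus. The null cortex libraries were both below the WT libraries, while the hippocampal groups overlapped. The edgeR log2 change was -0.82 in cortex (SE 0.447, adjusted p = 1) and -0.68 in hippocampus (SE 0.459, adjusted p = 0.97), in comparisons that called 0% of all genes. The cortical value of Nrg1 was -1.28 (SE 0.639) without the Myh8 cluster and -0.29 (SE 0.438) without the TH clusters, both with an adjusted p of 1 in edgeR. The 2 smallest of these sums held 3 and 5 UMIs of Nrg1.

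Nrg2, a ligand close to Nrg1, lies on chromosome 18 (36017652 to 36197380, minus strand, ENSMUSG00000060275.7). In NGFC cells it stood at 9.6, 31.1 and 25.02 CPM in WT cortex, 22.7 in null cortex replicate 2, 10.2, 28.5 and 24.6 in WT hippocampus, and 5.9 and 18.5 in null hippocampus. Replicate 1 was the low library in each of the groups that had it. Within libraries, Nrg2 was higher in NGFC cells than in TH cells, OPCs, newly formed and mature oligodendrocytes in 9 of 9 libraries, and higher than in PVALB and SST cells in 8 of 9. WT means were 21.5 CPM in NGFC (SD 9.27), 16.2 in glutamatergic (SD 20.2, 27 UMIs), 10.1 in PVALB (SD 4.54), 9.77 in SST (SD 3.49), 8.52 in TH (SD 3.83), 6.74 in OPC (SD 5.56), 6.16 in astrocytes (5 UMIs), 6.05 in cycling precursors (6 UMIs), 3.45 in newly formed (SD 2.62) and 0.9 in mature oligodendrocytes (SD 0.431). No neighbours in this order were apart by more than their spread over libraries. The edgeR log2 change with genotype in NGFC cells was -0.01 in cortex (SE 0.712) and -0.66 in hippocampus (SE 0.537, adjusted p = 0.956), and the groups overlapped. The hippocampal value was -0.27 without null replicate 1 and -1.77 without null replicate 2.

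Nrg3, a neuregulin largely restricted to the nervous system that binds Erbb4, lies on chromosome 14 (38368952 to 39473088, minus strand, ENSMUSG00000041014.13). In PVALB cells it stood at 18.3, 34.2 and 29.1 CPM in WT cortex, 32.3 and 43.3 in null cortex, 32.1, 34.9 and 31.6 in WT hippocampus, and 27.7 and 51.7 in null hippocampus. In SST cells the values were 16.7, 29.3 and 29.96 in WT cortex, 28.2 and 26.3 in null cortex, 26.1, 45.5 and 26.1 in WT hippocampus, and 17.6 and 46.9 in null hippocampus. The genotypes overlapped in both classes and regions. Glutamatergic neurons, which are rare in this sort, held 32.2, 66.1 and 42.6 CPM in WT cortex and 42.3 in WT hippocampus replicate 3, with a mean of 46.9 over 5 WT libraries (SD 12.7).

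WT means of Nrg3 in the other classes were 30.04 CPM in PVALB (SD 6.11), 28.9 in SST (SD 9.41), 19.4 in NGFC (SD 7.11), 19.3 in TH (SD 8.14), 6.05 in OPC (SD 7.47), 1.08 in cycling precursors (SD 2.4), 0.599 in mature (SD 0.539) and 0.244 in newly formed oligodendrocytes (SD 0.597). No UMI of Nrg3 was found in WT astrocytes (307 cells), microglia and choroid plexus cells. Nrg3 was thus highest in neurons, while OPCs overlapped the interneuron classes through libraries with few UMIs, the highest OPC value being 27.4 CPM from 6 UMIs in null hippocampus replicate 2. The ranges of the 4 interneuron classes overlapped, while within libraries Nrg3 was higher in PVALB than in NGFC cells in 9 of 9 and than in TH cells in 10 of 10, and higher in SST than in TH cells in 9 of 10 and than in NGFC cells in 8 of 9. Between PVALB and SST cells it was higher in PVALB in 8 of 10. Among SST clusters the pooled WT level ran from 41.96 CPM in the cluster led by Cbln4 and Olfm3 to 6.2 in the cluster led by Npy, Crhbp and Chodl. The edgeR log2 change with genotype in PVALB cells was 0.52 in cortex (SE 0.332, adjusted p = 1) and 0.36 in hippocampus (SE 0.347, adjusted p = 1).

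Nrg4, a ligand of Erbb4 with a single EGF-like domain, lies on chromosome 9 (55220222 to 55326844, minus strand, ENSMUSG00000032311.13). It was near the floor in every class, with 21 UMIs in all WT PVALB cells (mean 1.52 CPM), 18 in SST (mean 0.789), 7 in TH, 5 in NGFC, 4 in mature oligodendrocytes and 0 in OPCs. At this depth no order among classes can be read. It passed the filter on low counts in none of the tested classes.

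**Figure D1:**
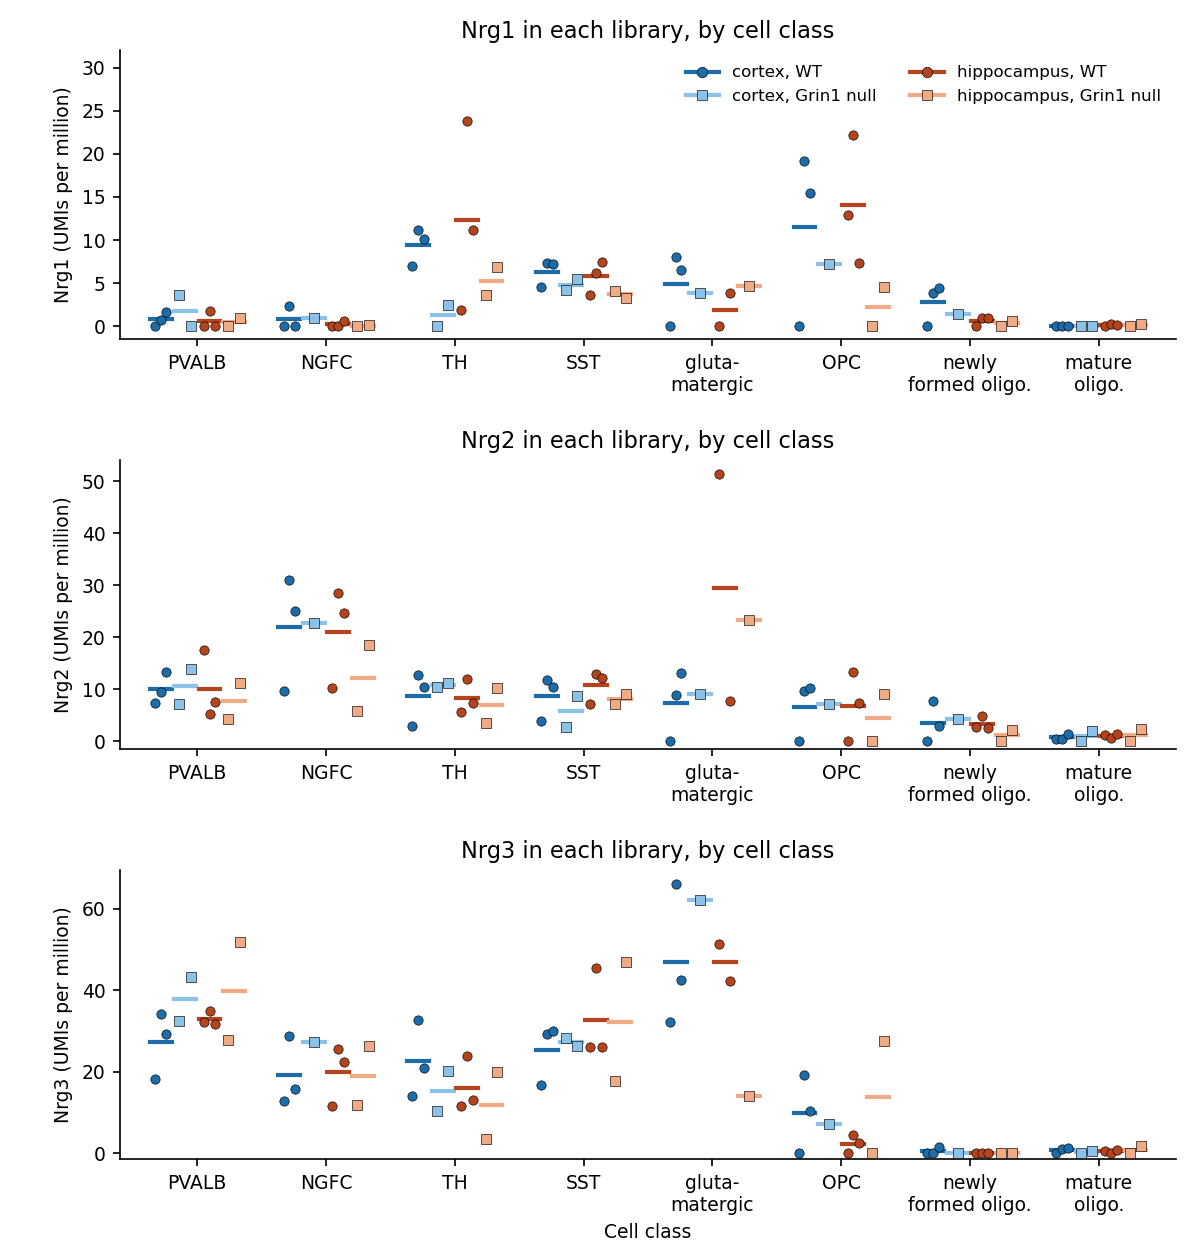
CPM of Nrg1, Nrg2 and Nrg3 by cell class, with 1 point per library, coloured by region and genotype, and bars at group means. Nrg3 was highest in glutamatergic, PVALB and SST cells, and Nrg2 was high in NGFC cells, with replicate 1 low there, and in 1 glutamatergic library of few UMIs.

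Among the receptors, Erbb4, the neuregulin receptor with an active kinase, lies on chromosome 1 (68032186 to 69108059, minus strand, ENSMUSG00000062209.11). In PVALB cells it stood at 346, 708 and 461 CPM in WT cortex, 442 and 583 in null cortex, 517, 827 and 465.8 in WT hippocampus, and 319.7 and 518 in null hippocampus. In NGFC cells it stood at 350.0, 583 and 336 in WT cortex, 421 in null cortex replicate 2, 415, 719.8 and 417 in WT hippocampus, and 222 and 448 in null hippocampus. TH cells were in the same range, with 273, 504 and 357 in WT cortex, 261 and 415 in null cortex, 395, 832 and 352 in WT hippocampus, and 271 and 344 in null hippocampus. The 3 classes overlapped fully, and the WT library of replicate 2 was the highest in each class and region.

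SST cells outside the TH clusters held far less Erbb4. Their values were 16.7, 38.4 and 21.5 CPM in WT cortex, 19.8 and 18.8 in null cortex, 108.5, 143 and 75.4 in WT hippocampus, and 75.5 and 84.8 in null hippocampus. Every cortical library was below every hippocampal library, in both genotypes. Within libraries, Erbb4 was higher in PVALB than in SST cells in 10 of 10, with a median log2 ratio of 3.39 (2.07 to 4.89, with 1 CPM added to each level in this and all later ratios between libraries or classes), in TH than in SST cells in 10 of 10, with a median of 3.10 (1.83 to 4.40), and in NGFC than in SST cells in 9 of 9. PVALB exceeded NGFC cells in 8 of 9 libraries and TH cells in 9 of 10.

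The oligodendrocyte lineage also carried Erbb4. Mature oligodendrocytes stood at 40.4, 93.9 and 109.5 CPM in WT cortex, 33.0 and 52.9 in null cortex, 48.2, 152 and 96.5 in WT hippocampus, and 26.1 and 72.2 in null hippocampus. OPCs stood at 81.3, 115 and 66.8 in WT cortex, 65.0 in null cortex replicate 2, 45.1, 97.5 and 74.0 in WT hippocampus, and 69.2 and 50.3 in null hippocampus. Newly formed oligodendrocytes held 52.7, 62.0 and 54.1 in WT cortex, 54.3 in null cortex replicate 2, 46.3, 79.8 and 46.5 in WT hippocampus, and 21.6 and 47.1 in null hippocampus. The stages overlapped, and all lay below PVALB, NGFC and TH cells of their own group.

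Over the WT libraries the mean level of Erbb4, from high to low, was PVALB 554 CPM (SD 178), NGFC 470 (SD 151), TH 452 (SD 201), mature oligodendrocytes 90.1 (SD 41.3), OPC 79.97 (SD 24.3), cycling precursors 68.3 (SD 39.2), SST 67.2 (SD 50.9), newly formed oligodendrocytes 56.9 (SD 12.6), glutamatergic 41.3 (SD 63.6), astrocytes 18.1 (SD 40.0), microglia 11.0 (SD 21.9) and choroid plexus 6.31 (SD 10.9). The only neighbours in this order whose libraries did not overlap were TH cells and mature oligodendrocytes. Among PVALB clusters the pooled WT level was 671 CPM in the one led by Plcxd3 and Pthlh, 508 in the one led by Tac1 and Cartpt and 445 in the one led by Crabp1 and Kit, and among mature oligodendrocyte clusters 155 and 131 in a pair of shallow clusters mostly from WT hippocampus replicate 2, 108 in the one led by Opalin and Itgad, 103 in the one led by Tmem141 and Il23a, 90.6 and 79.3 in a further pair and 39.4 in the one led by Klk6 and Hapln2. The glutamatergic mean rests on few UMIs, its median library being at 17.5 CPM.

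Shares of WT cells with an Erbb4 UMI were compared after each cell had been thinned to 1000 UMIs. They were 41.8% of PVALB cells, 41.2% of NGFC, 34.2% of TH, 9.22% of mature oligodendrocytes, 7.12% of OPCs, 5.46% of newly formed oligodendrocytes and 5.33% of SST cells. Without thinning the shares were 90.8%, 75.8%, 85.1%, 27.2%, 12.2%, 15.01% and 17.8%, at median depths of 6808, 3451, 7492.5, 3346.5, 1417, 2504 and 5869 UMIs in that order. Glutamatergic neurons, which should carry little of this receptor, gave 1.55% after thinning (exact interval 0.623 to 3.16%, 3.86% unthinned, median 1029.5 UMIs) and astrocytes 0.8% (1.95% unthinned, median 2140 UMIs). All the interneuron and lineage shares lay above these background shares, with the exception of SST cells of the cortex, whose thinned share in WT was 2.59% (1.99 to 3.30%), inside the glutamatergic interval and so not separable from background by this share. By level, over libraries of both regions, Erbb4 was higher in SST cells than in astrocytes in 9 of 9 and than in glutamatergic neurons in 5 of 7. WT hippocampal SST cells gave 11.5% (9.69 to 13.6%), null cortical 1.95% and null hippocampal 7.42%, against 13.0%, 27.6%, 16.5% and 46.7% unthinned for WT cortex, WT hippocampus, null cortex and null hippocampus. Thinning left out 109, 163, 65 and 6 SST cells of these 4 groups.

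**Figure D2:**
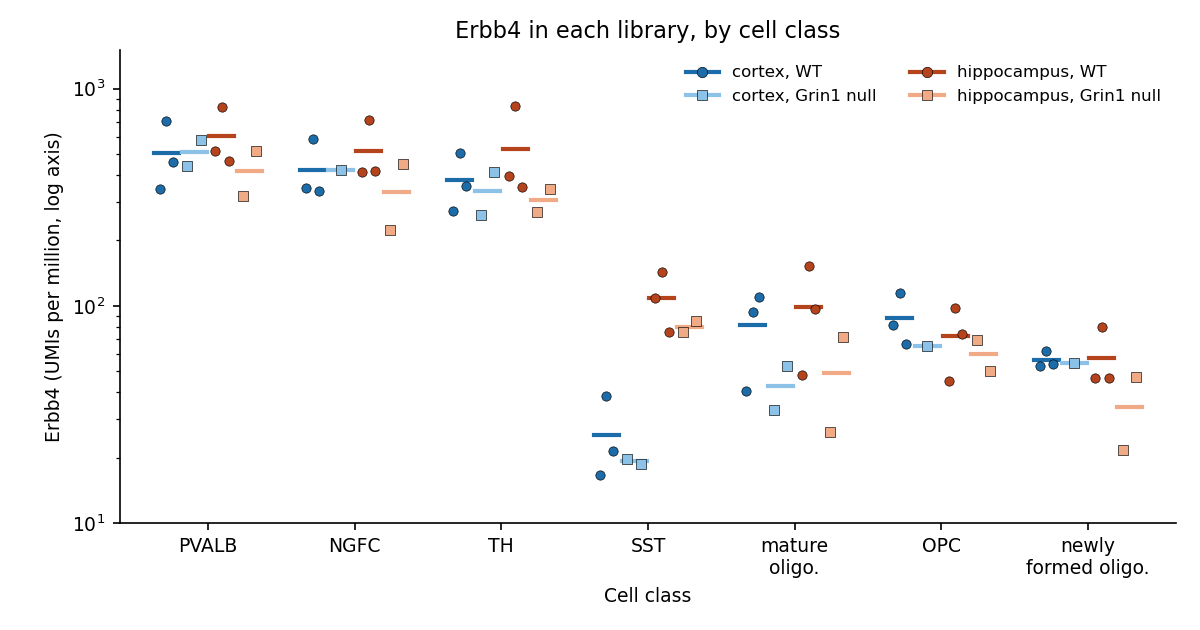
Erbb4 CPM (log axis) by cell class, with 1 point per library, coloured by region and genotype, and bars at group means. PVALB, NGFC and TH cells lie between 222 and 832 CPM, and in SST cells the cortical libraries lie between 16.7 and 38.4 CPM and the hippocampal ones between 75.4 and 143.

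The question whether a class differs between regions was put to the 6 WT libraries. Since the SST clusters contribute unequally, with the Myh8 cluster the largest in WT cortex (736 cells) and the cluster led by Trhde and Myh13 the largest in WT hippocampus (623 cells), Erbb4 was also read within clusters. In the Cbln4 cluster it stood at 37.8, 53.8 and 25.3 CPM in WT cortex, 21.5 and 30.4 in null cortex, 151, 132 and 159 in WT hippocampus, and 98.7 and 122 in null hippocampus. Regions did not overlap there, and the pooled WT levels were 35.8 (95% Poisson interval 31.0 to 41.0) and 148 (133 to 165).

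The Trhde cluster gave pooled WT levels of 53.2 CPM in cortex (37.0 to 73.9) and 178 in hippocampus (153 to 205), but its cells are shallow, and 571 of its 623 WT hippocampal cells came from WT hippocampus replicate 2. Its 3 WT libraries stood at 29.7, 35.6 and 103 in cortex and 72.2, 178 and 223 in hippocampus, and so overlapped. The Myh8 cluster gave 14.8 (11.7 to 18.5) and 27.8 (19.03 to 39.3). In the cluster led by Pdyn and Lypd6b, at 27.1 and 34.1, and in the Npy cluster, at 13.3 and 16.6, the intervals of the regions overlapped. In the TH class, the Th and Nr4a2 cluster stood at 481 in cortex and 538 in hippocampus. The Crh and Tac2 cluster was lower in hippocampus, at 284 in cortex (268 to 301) and 224 in hippocampus (193 to 260). In null cells these values were 467 and 475 for the Th and Nr4a2 cluster, and 312 (284 to 342) and 188 (165 to 213) for the Crh and Tac2 cluster. In null cells the Cbln4 cluster stood at 28.4 in cortex (19.8 to 39.5) and 120 in hippocampus (112 to 129.5), the Myh8 cluster at 9.97 (4.78 to 18.3) and 48.7 (39.6 to 59.4), and the Npy cluster at 7.84 (4.97 to 11.8) and 26.7 (13.8 to 46.6, from 12 UMIs). The Trhde cluster stood at 118 and 111, from 14 and 13 UMIs, and the Pdyn cluster at 34.6 and 28.3, with no gap. The Cbln4 cluster thus had a regional gap in both genotypes in every library, and as clusters were singled out after the values were seen no test is given for them.

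**Figure D3:**
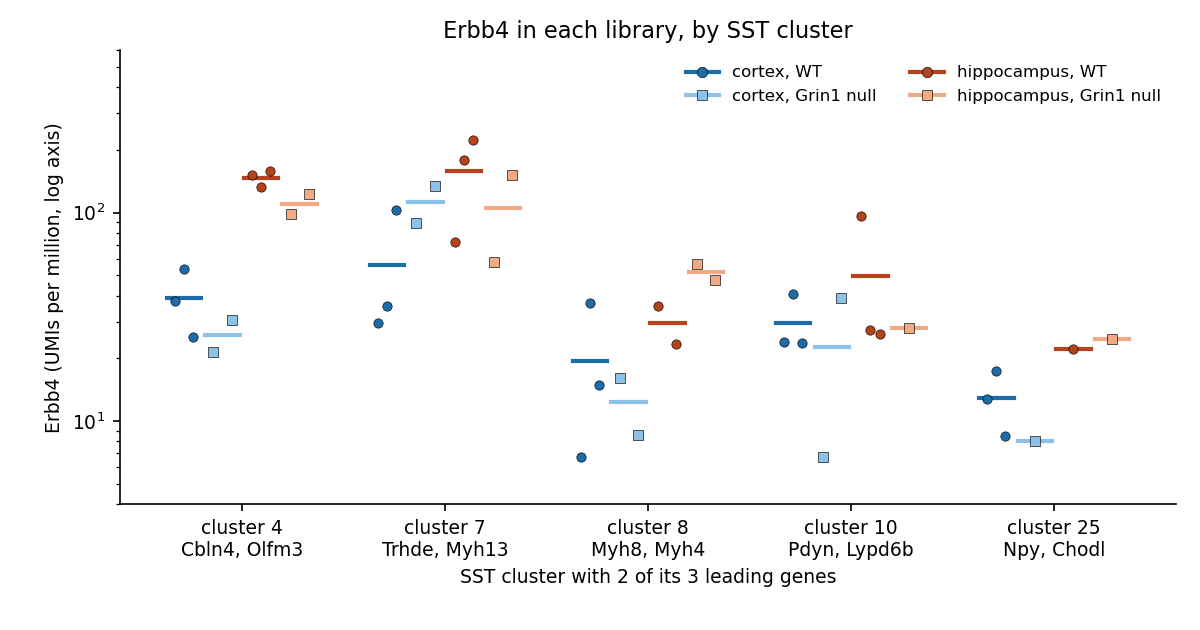
Erbb4 CPM (log axis) in the SST clusters by their leading genes, with 1 point per library, coloured by region and genotype, and bars at group means, leaving out libraries with under 10 cells of a cluster. In the Cbln4 cluster the 5 hippocampal libraries lie between 98.7 and 159 CPM and the 5 cortical ones between 21.5 and 53.8.

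For SST and TH cells added together, Erbb4 stood at 100.5, 129 and 109 CPM in WT cortex and at 187, 172 and 158 in WT hippocampus, with no overlap, in a comparison that called 0.0418% of all genes (5 of 11969). The edgeR log2 change, hippocampus minus cortex, was 0.55 (SE 0.218, adjusted p = 0.541), so the receptor was not called. TH cells, which hold most of the Erbb4 UMIs of the sum in 5 of the 6 WT libraries but 70 of 346 in WT hippocampus replicate 2, made up 32.7%, 20.4% and 24.8% of it in WT cortex and 27.6%, 4.97% and 30.5% in WT hippocampus, and were lowest where the depth was lowest. With the TH clusters left out, an alternative chosen after the values were seen, the log2 change was 2.03 (SE 0.374, adjusted p = 0.0406). With the replicate number as a block as well, it was 2.02 (SE 0.22, adjusted p = 1.66e-05) and Erbb4 was called, in a fit that called 3.54% of all genes (395 of 11156), against 0.125% (14) without the block. It was the only call of a family member under the 29 alternatives tried. Over the 22 of them that gave this change another fit, it ran from 0.36 to 2.03 and its adjusted p from 1.66e-05 to 1. The block alone gave an adjusted p of 0.104 in a fit that called 2.93% of genes. Between WT libraries of the same replicate number, the log2 ratios in SST cells alone were 2.63, 1.87 and 1.76, and between null libraries 1.88 and 2.12. The part of depth in these values was not tested. Markers of mature oligodendrocytes were also apart between the regions in SST and TH cells, in a sum that was not tested, with a level of the 9 markers of 176, 293 and 129 CPM in WT cortex and 682, 858 and 337 in WT hippocampus, led by Mal, Mobp or Mag and with Klk6 at 0 in WT hippocampus replicates 1 and 3. In mature oligodendrocytes themselves of WT the same sum ran from 25114 to 38892 CPM, and Erbb4 was no higher than 152.

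In the other classes the regional log2 changes of Erbb4 did not exceed their SEs without the block. They were 0.28 in PVALB (SE 0.325), 0.34 in NGFC (SE 0.349), 0.29 in mature oligodendrocytes (SE 0.471), 0.14 in newly formed oligodendrocytes and -0.11 in OPCs. With the replicate block they were 0.27 in PVALB (SE 0.166), 0.32 in NGFC (SE 0.186) and 0.25 in mature oligodendrocytes (SE 0.211). In newly formed oligodendrocytes the blocked change was 0.09 (SE 0.313) and in OPCs -0.04 (SE 0.43), and none was called. Without the block these comparisons called 0.0339% of genes in PVALB, 0% in NGFC, 0% in mature oligodendrocytes, 0.0133% in newly formed oligodendrocytes and 0% in OPCs. With the block they called 0.543%, 0.0637%, 0.954%, 0.159% and 1.39% in that order. With SST and TH cells together and no block, no family member was called by edgeR between regions in any of the 6 classes, and DESeq2 called none either, while it called 1.20% of genes in SST and TH cells, 0.271% in PVALB, 0.0510% in NGFC, 0% in OPC (of 176 genes given an adjusted p), 0.0133% in newly formed and 0.0508% in mature cells. With edgeR 1 member, Erbb4 in SST and TH cells, had an unadjusted p under 0.05, and without the Myh8 cluster its log2 change was 0.45 (SE 0.222, adjusted p = 0.798) and the unadjusted p was 0.0756.

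Whether loss of Grin1 moved Erbb4 was asked in each class and region. In SST and TH cells of the hippocampus it stood at 187, 172 and 158 CPM in WT and 119.5 and 133 in null libraries, with no overlap. In cortex the values were 100.5, 129 and 109 in WT and 71.1 and 172 in null libraries, so that the null libraries lay on both sides of the WT ones. TH cells made up 18.2% and 38.5% of the summed cells in null cortex replicates 1 and 2, and 24.5% and 19.2% in null hippocampus. The edgeR log2 changes, null minus WT, were -0.42 in hippocampus (SE 0.319, adjusted p = 0.97) and 0.14 in cortex (SE 0.314, adjusted p = 1), and their difference was -0.55 (SE 0.446, adjusted p = 1). Each of these comparisons called 0% of genes. Without the Myh8 cluster the hippocampal value was -0.45 and the cortical one 0.02, and without the TH clusters they were -0.42 and -0.37, so the sign of the cortical value depends on the TH cells. Clusters differed in direction, since in the hippocampus the pooled level was 148 CPM in WT and 120 in null cells of the Cbln4 cluster but 27.8 (19.03 to 39.3) in WT and 48.7 (39.6 to 59.4) in null cells of the Myh8 cluster.

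In the hippocampus the other 5 tested classes also gave a negative value for Erbb4, at -0.53 in PVALB (SE 0.357), -0.64 in NGFC (SE 0.405), -0.44 in OPCs (SE 0.556), -0.61 in newly formed (SE 0.431) and -0.96 in mature oligodendrocytes (SE 0.534), all from edgeR and with adjusted p from 0.956 to 1. The null and WT libraries overlapped in each of these 5 classes, and in TH cells, which were not tested alone, both null libraries lay below the 3 WT ones. Among other classes that were not tested, pooled hippocampal cells stood at 50.4 CPM in WT (34.5 to 71.2) and 79.8 in null (42.5 to 136) for cycling precursors and at 17.7 (7.11 to 36.4) and 24.3 (11.1 to 46.2) for astrocytes, with overlapping intervals. Between libraries of the same replicate number the log2 ratios were -0.69 and -0.67 in PVALB, -0.90 and -0.68 in NGFC, -0.54 and -1.27 in TH, -0.52 and -0.75 in SST and -0.86 and -1.07 in mature oligodendrocytes, while OPCs gave 0.61 and -0.94. Newly formed oligodendrocytes were also lower in the null library of each pair. Null cells were also deeper, with a median of 13276 UMIs against 3028 in NGFC cells, and the part of depth was not tested.

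These hippocampal values rest in part on clusters that are mostly cells of WT hippocampus replicate 2, the shallowest library. Among SST cells, the Trhde cluster held 623 WT and 49 null hippocampal cells, and no value without it is given for SST cells. Erbb4 stood there at 178 CPM in WT (153 to 205) and 111 in null cells (58.9 to 189). The NGFC cluster led by Pde11a and Tenm1 held 550 WT and 30 null hippocampal cells, with Erbb4 at 699 CPM in WT (652 to 749) and 397 in null cells (326 to 478), and 2 clusters of mature oligodendrocytes held 1400 and 577 WT and 73 and 17 null cells. In the other NGFC cluster Erbb4 stood at 414 CPM in WT (394 to 435) and 433 in null hippocampal cells (420 to 447), with WT replicates 1 and 3 at 411 and 414 and the null libraries at 222 and 450.0. In the other 5 mature clusters WT cells stood at 38.8, 96.2, 69.8, 99.5 and 67.2 and null cells at 47.4, 96.5, 57.4, 89.6 and 44.0 in the same order, so that WT was the higher in 3 of 5. With the shallow clusters left out, an alternative chosen after the values were seen, the edgeR log2 change was -0.28 in NGFC (SE 0.367), -0.11 in OPCs (SE 0.536), -0.26 in newly formed (SE 0.406) and -0.83 in mature oligodendrocytes (SE 0.503). Without WT hippocampus replicate 2 it was -0.21 in PVALB, -0.27 in NGFC, -0.17 in OPCs, -0.25 in newly formed and -0.48 in mature oligodendrocytes, and -0.41 in SST with TH cells.

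With the replicate number as a block, for which the pairing check had 3 pairs only between the WT regions, the unadjusted p of the hippocampal change was 0.00797 in NGFC (log2 change -0.79, SE 0.253, adjusted p = 0.259), 0.0138 in mature oligodendrocytes (-0.88, SE 0.319, adjusted p = 0.381) and 0.0211 in PVALB cells (-0.62, SE 0.239, adjusted p = 0.564) with edgeR. The edgeR p was 0.058 in newly formed oligodendrocytes (-0.78, SE 0.396), 0.135 in SST with TH cells (-0.47, SE 0.291) and 0.3 in OPCs (-0.615, SE 0.594). In cortex the block gave an unadjusted p of 0.0281 in mature oligodendrocytes (log2 change -0.92, SE 0.381, adjusted p = 0.502), and changes of 0.045 in SST with TH cells (SE 0.292), -0.02 in PVALB (SE 0.241), -0.52 in NGFC (SE 0.336), -0.76 in OPCs (SE 0.76) and -0.46 in newly formed oligodendrocytes (SE 0.513). None of these was called. Without the block the cortical changes were 0.05 in PVALB (SE 0.351), -0.02 in NGFC (SE 0.506), -0.45 in OPCs (SE 0.718), -0.04 in newly formed (SE 0.539) and -0.78 in mature oligodendrocytes (SE 0.573).

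Erbb3, the receptor with a weak kinase that signals through its partners, lies on chromosome 10 (128567523 to 128589652, minus strand, ENSMUSG00000018166.8). In mature oligodendrocytes it stood at 64.1, 103 and 153 CPM in WT cortex, 16.5 and 95.8 in null cortex, 91.7, 109.6 and 193 in WT hippocampus, and 72.0 and 136 in null hippocampus. The lowest value is 2 UMIs in the smallest library, and the genotypes otherwise overlapped. In OPCs the values were 20.3, 9.6 and 71.9 in WT cortex, 93.8 in null cortex replicate 2, 6.4, 4.4 and 21.8 in WT hippocampus, and 27.7 and 13.7 in null hippocampus. In newly formed oligodendrocytes they were 52.7, 11.6 and 10.2 in WT cortex, 7.2 in null cortex replicate 2, 3.6, 1.9 and 4.7 in WT hippocampus, and 7.2 and 3.5 in null hippocampus.

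Erbb3 was thus higher in mature oligodendrocytes than in the stages before them. Within libraries it was higher in mature oligodendrocytes than in OPCs in 9 of 9 and than in newly formed oligodendrocytes in 9 of 9, and higher in OPCs than in newly formed oligodendrocytes in 7 of 9. WT means were 119 CPM in mature oligodendrocytes (SD 46.4), 22.4 in OPCs (SD 25.3), 17.8 in cycling precursors (SD 17.2), 14.1 in newly formed oligodendrocytes (SD 19.3), 3.22 in NGFC (SD 4.70), 2.79 in PVALB (SD 3.54), 1.76 in TH (SD 2.06) and 1.55 in SST cells (SD 1.34), with 3.95 in microglia (1 UMI), 0.932 in astrocytes (1 UMI) and none in glutamatergic neurons. Neighbours in this order overlapped, mature oligodendrocytes and OPCs through 1 high library of OPCs. After thinning, 10.2% of mature oligodendrocytes, 2.17% of OPCs and 0.528% of newly formed oligodendrocytes held an Erbb3 UMI, against 30.8%, 3.7% and 1.62% unthinned.

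The low level in newly formed oligodendrocytes depends on where the line between newly formed and mature cells is drawn. Among mature clusters Erbb3 was highest in the cluster led by Tmem141 and Il23a, at 211 CPM in pooled WT cells, and in the cluster led by Opalin and Itgad, at 196, and lowest in the cluster led by Klk6 and Hapln2, at 59.5. The 3 newly formed clusters held 2.0, 3.2 and 11.0 CPM. With the Tmem141 cluster (613 cells) counted as newly formed, as an alternative chosen after the values were seen, the mean of newly formed oligodendrocytes was 74.6 CPM, and at a clustering resolution of 1.4, where that cluster and most of another moved, it was 88.2. By their own marker UMIs 486 of its cells were mature and 82 newly formed.

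**Figure D4:**
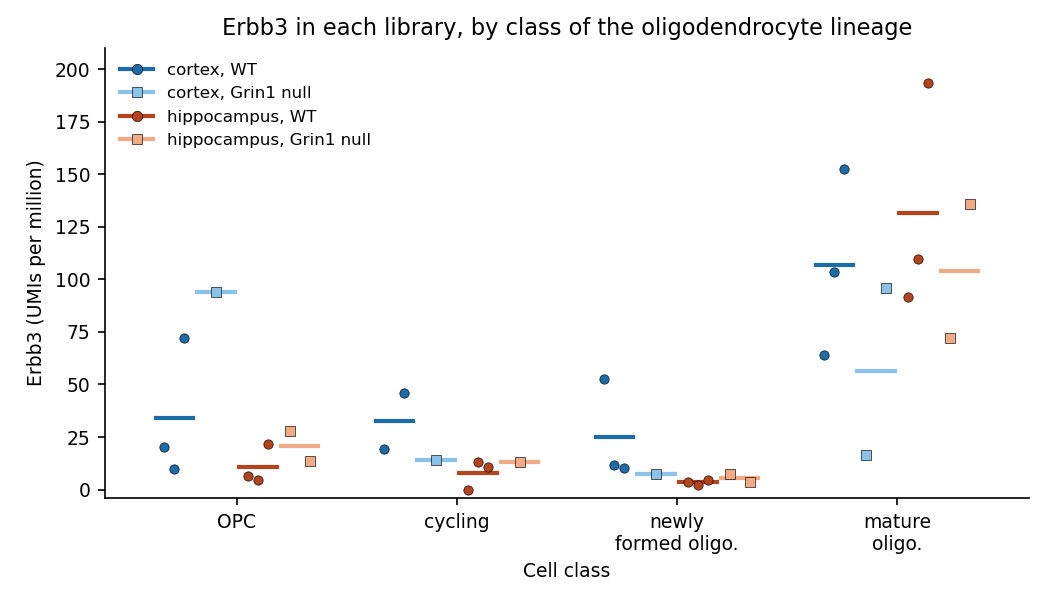
Erbb3 CPM in the oligodendrocyte lineage and the cycling class, with 1 point per library, coloured by region and genotype, and bars at group means. Mature oligodendrocytes lie above OPCs and newly formed oligodendrocytes of the same library, and the newly formed class lies between 1.9 and 52.7 CPM.

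Erbb3 did not pass the test in any comparison. In mature oligodendrocytes the edgeR log2 change, null minus WT, was -0.61 in cortex (SE 0.545, adjusted p = 1), -0.10 without null replicate 1 and -2.89 without null replicate 2 (adjusted p = 0.816), and -0.31 in hippocampus (SE 0.517, adjusted p = 1), and hippocampus minus cortex in WT was 0.30 (SE 0.387, adjusted p = 1). In OPCs the genotype values were 1.18 in cortex (SE 1.03), from 1 null library, and 0.37 in hippocampus. In newly formed oligodendrocytes they were -1.40 in cortex (SE 1.01), again from 1 null library, and 0.23 in hippocampus. With the replicate block the edgeR values were 2.91 in cortex (SE 1.25, adjusted p = 0.42) and 1.86 in hippocampus (SE 1.29, adjusted p = 0.604) in OPCs, -0.64 and 0.51 in newly formed and -0.37 and -0.03 in mature oligodendrocytes, and none was called. A lone null library is assumed in these fits to vary like the libraries of the other groups.

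Erbb2, the partner receptor without a ligand, lies on chromosome 11 (98412470 to 98437716, plus strand, ENSMUSG00000062312.5). No UMI of it was found in WT SST, TH, PVALB, NGFC, OPC and newly formed cells, and 1 was found in 5446 mature oligodendrocytes. After thinning, a count of 0 allows shares of up to 0.085% of SST, 0.187% of PVALB, 0.254% of NGFC, 0.285% of TH, 0.464% of OPC and 0.176% of newly formed cells with a UMI. Astrocytes held 11 UMI-positive cells of 307, or 3.58% (exact interval 1.80 to 6.32%), at a mean of 10.8 CPM, choroid plexus cells 5 of 168, or 2.98%, at a mean of 12.3 CPM over 3 libraries (SD 17.8), and endothelial cells 1 of 49. The choroid plexus libraries ran from 0 to 32.7 CPM, with a median of 4.21. That class also held markers of mural cells, with Vtn at 584 and Rgs5 at 387 CPM in pooled WT cells, and may be mixed. After thinning, 3 of 250 astrocytes (1.2%), 1 of 41 endothelial cells and 0 of 139 choroid plexus cells held a UMI of Erbb2, and the last allows a share of up to 2.16%. It was too low for a test in every tested class, and a low 3' count of a gene does not show that its transcript is absent.

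Of the 7 members, 5 passed the filter on low counts in SST and TH cells (Erbb3, Erbb4, Nrg1, Nrg2 and Nrg3), 3 in PVALB and in NGFC cells (Erbb4, Nrg2 and Nrg3), and 2 in each oligodendrocyte class (Erbb3 and Erbb4). None was called with genotype in either region, and none of the differences between regions in the genotype change was called. With edgeR the genotype and interaction comparisons called 0% of genes in all 6 classes, with 273, 352, 139, 127, 142 and 164 genes at an unadjusted p under 0.05 in cortex for SST with TH, PVALB, NGFC, OPC, newly formed and mature cells, and 474, 321, 310, 173, 389 and 170 in hippocampus. DESeq2 called 14 genes over the 6 classes in cortex and 5 in hippocampus, at 0.0156% of genes in SST with TH and 0.123% in PVALB cells of the cortex and 0.0156% in SST with TH, 0.0102% in PVALB, 0.0103% in NGFC and 0.00938% in mature cells of the hippocampus, and no family member. Of the 34 genotype changes of members, 31 moved by over 1.5 times or to the other sign when 1 library was left out, and 16 took the other sign. A p that misses the threshold does not show that levels were equal, and with 1 or 2 null libraries a group the SEs of Erbb4 ran from 0.314 to 0.718 on the log2 scale.

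The pathway around the receptors was read from 4 lists with 59 genes: other EGF-family ligands and the receptor Egfr, proteases of ligand shedding and receptor cleavage, adaptors and kinases, and scaffolds and negative regulators. Of these, 51 were tested with genotype in SST with TH cells, 48 in PVALB, 49 in NGFC, 33 in OPC, 48 in newly formed and 52 in mature cells, and edgeR called 0 up and 0 down in each. In SST with TH cells the median log2 change of the 29 adaptors and kinases was -0.08 in cortex and -0.23 in hippocampus, beside -0.02 and -0.03 over all genes tested. The 9 shedding and cleavage genes had medians of 0.08 and -0.03, and the 11 scaffolds and regulators -0.03 and -0.23. In mature oligodendrocytes the medians of the 29 adaptors and kinases were -0.14 in cortex and -0.05 in hippocampus, beside -0.07 and -0.05 over all genes. Those of the 9 shedding and cleavage genes were -0.22 and -0.09 there, and those of the 12 scaffolds and regulators -0.22 in both regions. Hippocampal medians of the adaptors and kinases were 0.05 in PVALB, -0.22 in NGFC, -0.28 in OPC and -0.265 in newly formed cells. Over all genes they were -0.01, -0.06, -0.07 and -0.05. Over all 6 classes, medians of the shedding and cleavage genes ran from -1.37 in cortical OPCs (6 genes) to 0.20 in hippocampal newly formed cells. Those of the scaffolds and regulators ran from -0.43 in hippocampal OPCs (4 genes) to 0.10 in cortical NGFC cells.

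With the replicate block, 2 pathway genes were called by edgeR. The pairing check met its rule of 3 pairs only between the WT regions, so it does not back the block for genotype. Egfr, the EGF receptor, was higher in null than WT cortical PVALB cells, with a log2 change of 3.84 (SE 0.508, adjusted p = 0.00738), against 3.34 (SE 0.501, adjusted p = 0.019) without the block. It is among the leading genes of the PVALB cluster marked by Crabp1 and Kit, which held 38 WT and 65 null cortical cells, out of 1314 and 282 PVALB cells. Gab1, an adaptor that docks on activated receptors, was higher in hippocampal than cortical WT SST with TH cells, with a log2 change of 1.75 (SE 0.363, adjusted p = 0.00573), against an adjusted p of 0.216 without the block. Its level there was low, at 1.33, 2.95 and 1.75 CPM in WT cortex and 4.72, 10.4 and 6.09 in WT hippocampus, from 7 to 25 UMIs a library, while mature oligodendrocytes held 128 CPM or more in each WT library. The part of the mature markers, which are apart between regions in the same cells, was not tested. The block raised the genes called in that comparison from 5 to 351 (2.93%) and called 4 of 9764 (0.0410%) with genotype in cortical PVALB cells and 0.543% between regions in PVALB cells, with no family member among them.

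For each member above 10 CPM in some class, the 3 genes with the most similar pattern over the 13 classes were listed by Pearson's r of log2(CPM + 1), among 11666 genes. They were Afap1 (0.868), Fbxo21 (0.853) and Zfp536 (0.851) for Erbb4, Ninj2 (0.934), Prr18 (0.906) and a gene without a common name (0.876) for Erbb3, and Fkbp10 (0.985), Gja1 (0.984) and Gstm1 (0.978) for Erbb2. For the ligands they were Kcnmb4os2 (0.944), Sstr1 (0.926) and Chrna4 (0.893) for Nrg1, Bap1 (0.943), Pdzd4 (0.933) and Mettl10 (0.927) for Nrg2, and Svop (0.988), Fam43b (0.978) and N28178 (0.977) for Nrg3. Gja1 is a marker used to name astrocytes, and the points share their libraries and differ in depth.

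Several members share their place with other genes. The spans of Nrg1, Nrg3, Nrg4 and Erbb2 overlap genes on the other strand, among them Nrg3os, Fbxo22 and Mien1, and those of Erbb4, Erbb3 and Nrg3 overlap genes on their own strand, 8 of them within Erbb4. Whether counting used the strand is not given in the sources used here, so counts of such pairs may not be separable. Levels of different genes are not compared, because each is a count of 3' tags.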

How the data were processed

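TdTomato-positive cells were dissociated in buffers with inhibitors of activity and transcription, sorted and run on 10x Genomics 3' chemistry, version 2 for replicate 1 and version 3 for replicates 2 and 3. The values are deposited UMI counts per gene and cell, which the authors made with Cell Ranger (2.1.1 in the submitters' processing notes, 3.0.2 in the matrix headers, mm10) on a reference with gene ends extended, so that a gene's count can include tags past its annotated end. Each of the 4 deposited matrices pools libraries. Barcode suffixes were matched to replicates by the number of cells that the methods give for each.

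The cell filter (200 to 6000 genes detected, less than 30% of UMIs mitochondrial) kept 26201 of 26987 cells and removed 786. The 4 matrices, not the single libraries, were integrated in Seurat 5.3.0 (R 4.3.3) on 2000 variable features, less the 2 family genes among them. Integration used 25 dimensions and clustering a resolution of 1.0. Libraries pooled in the same matrix were not aligned to one another. Clusters were named from the markers of each type where at least 3 reached 20 CPM. Among such types, the one with the most markers among the cluster's 10 leading genes was preferred, with Reln not counted. Under these rules 4 clusters with 1234 cells were not named. Names and class borders were rebuilt here, so they may differ from the study's clusters. Scrublet (scanpy 1.11.5) marked 174 cells (0.664%) as doublets, which were kept, with an alternative without them.

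For each class, the counts of a library's cells were added up where at least 10 cells were present, which left out NGFC cells, OPCs and newly formed oligodendrocytes of null cortex replicate 1. Sums were tested with edgeR 4.0.16 (quasi-likelihood, TMM, filterByExpr, 1 model per class over the 4 groups, WT libraries alone for regions) and Benjamini-Hochberg adjustment over all genes tested. A gene was called when its adjusted p was below 0.01 and its change on the natural-log scale was 0.1 or more in size. The tests were first tried on counts simulated for SST with TH sums, with 1 fixed spread between libraries and no replicate effects. That spread was not estimated from these data, so the trial does not show how many true changes the real tests miss. Levels are means over libraries, and shares of cells used cells thinned to 1000 UMIs, leaving out 3134 shallower cells. Single shares have exact 95% Clopper-Pearson intervals, and a count of 0 is given the limit that 3 counts allow. DESeq2 1.42.0, other filters, scalings, resolutions and class borders, and each library left out in turn were tried as alternatives. Coordinates are from GENCODE M21 (GRCm38), which holds 42462 of the gene identifiers.

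The text names the 7 members, Grin1, class markers, pathway genes that were called and the 3 genes most like each member, and genes outside this rule were chosen after their values were seen. The members and lists were chosen with earlier results of these data known.

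Replicate numbers were checked as pairing by the correlation, over 12853 genes of SST with TH sums, of same-numbered libraries' deviations from their group means. Between WT cortex and WT hippocampus the 3 pairs gave 0.658, 0.613 and 0.379. Between WT and null the correlations were 0.261 in cortex and 0.252 in hippocampus, and the lowest of the others was 0.078. As the 3 pairs all exceeded 0.1, the numbers, which also carry the chemistry, were treated as pairing, and values with this replicate block stand where it changed a call. For genotype, replicates 1 and 2 gave the same correlation in each region, as 2 shared replicates must by construction. The rule of 3 pairs was thus not met there.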

Additional observations from a re-analysis of the deposited data

Results flagged for a closer look

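In 23 groups of 5 or 6 WT libraries of both regions, 4 had a highest or lowest library that stood apart from the others, where chance gives about 1 in 20. Erbb3 in newly formed oligodendrocytes was 52.7 CPM in WT cortex replicate 1, from 7 UMIs, with the nearest library at 11.6. Erbb3 in OPCs was 71.9 CPM in WT cortex replicate 3, from 14 UMIs, with the nearest at 21.8. Erbb4 in glutamatergic neurons was 154 CPM in WT hippocampus replicate 2, from 3 UMIs in 15 cells, with the nearest at 23.2. Nrg3 in PVALB cells was lowest in WT cortex replicate 1, at 18.3 CPM from 20 UMIs, with the nearest at 29.1.

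Members were also present in clusters that were given no class and enter no comparison. The cluster led by Meg3 and Snhg11 held 265 CPM of Erbb4, 42.4 of Nrg2 and 87.6 of Nrg3. The cluster led by Oxt and Avp held 46.3 CPM of Erbb4, 9.58 of Nrg2 and 10.4 of Nrg3, and the cluster led by Igfbpl1 and Neurod1 held 84.6 CPM of Erbb4. The part of these cells in other values was not tested.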

How the results depend on the processing

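Over 64 changes of family members and 29 alternatives, 1 of 1459 values was called, Erbb4 between regions at 2.02 with the TH clusters left out and a replicate block, which made the members called there 1 in place of 0. Signs differed from the reported one in 156 values, 5 of them among the 22 changes over 0.5 in size. The replicate block changed no other call of a member. Alternatives on class borders, on shallow clusters and without both WT libraries of replicate 3 were chosen after seeing the data.

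Over the 6 classes, genes called with genotype in cortex were 0 as reported, 9 at an adjusted p of 0.05, 14 with DESeq2, 91 with no filter on low counts, 10 with the replicate block, 12 with only the 2 groups compared in the fit, 1 at resolution 1.4, and 0 to 5 with each library left out, the 5 without WT hippocampus replicate 2. In hippocampus they were 0 as reported, 2, 5, 99 and 25 under the first 4 of these, 1 with only 2 groups, 6 without the shallow clusters and 0 to 1 with each library left out. The interaction gave 6 with no filter. Between regions they were 9 as reported, 44 at 0.05, 178 with DESeq2, 315 with no filter, 559 with the block, 18 without the TH clusters and 399 with the block as well, 0 without both WT libraries of replicate 3 and 0 to 7 with each library left out. The 399 hold 395 in SST cells with the block and, for the other classes, the calls without it, so they do not compare with the 559. The count between regions was 0 without cortex replicate 1, cortex replicate 3 or hippocampus replicate 3, 1 without cortex replicate 2 and 3 without hippocampus replicate 1. A library left alone in its group is assumed to vary like those of the other groups.

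Grin1 passed the threshold in SST and TH cells of cortex and hippocampus at 0.05 (-2.74 and -2.73), with DESeq2 (-2.74 and -2.76) and with no filter (-2.79 and -2.69), in PVALB cells of cortex (-2.53, -2.51 and -2.58 in that order) and, with DESeq2 and no filter, of hippocampus (-2.90 and -2.80), and likewise in NGFC cells of hippocampus (-2.51 and -2.47).

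Of 200 mean levels under other cell filters and class borders, 12 moved by more than 1 SD. In newly formed oligodendrocytes Erbb3 was 88.2 CPM at resolution 1.4 and 74.6 with the Tmem141 cluster, and Erbb4 80.6 and 72.2. In SST with TH cells Erbb4 was 105 with cells classed by their own markers, 67.2 without the TH clusters and 98.3 with the Th and Nr4a2 cluster moved to PVALB, where Nrg1 was then 1.61, and 1.54 by own markers. Nrg2 in OPCs was 13.4 under the stricter cell filter, and by own markers Nrg3 was 1.25 in mature and 1.18 in newly formed oligodendrocytes. Without thinning, shares with Erbb4 were 90.8% in PVALB, 75.8% in NGFC, 85.1% in TH, 17.8% in SST, 27.2% in mature, 15.01% in newly formed, 12.2% in OPC and 3.86% in glutamatergic cells, and with Erbb3 30.8% in mature, 1.62% in newly formed and 3.7% in OPC cells. Thinned cells hold fewer UMIs by construction, and the cause of the other shifts was not tested. Depth limits Erbb2, Nrg1, Nrg2 and Nrg4, with few UMIs a library.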

Other observations

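Other genes of the pathway lists had uneven levels over the classes, and those given here were chosen after their values were seen, with no test. Values are mean CPM over the WT libraries. Egfr, the EGF receptor, stood at 65.9 in NGFC cells (SD 17.6, 48.2 to 98.02) and 67.3 in astrocytes, against 5.72 in PVALB, 0.484 in SST and 0.133 in TH cells. It was thus, like Erbb4, higher in NGFC than in SST cells, while it was near 0 in TH cells, where Erbb4 is high.

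Among the ligands of Egfr, Tgfa was found in the oligodendrocyte lineage, at 88.3 in newly formed oligodendrocytes, 74.4 in OPCs and 51.3 in mature oligodendrocytes, and at 2.47 or less in the 4 interneuron classes. Hbegf was found in most classes, at 114 in astrocytes, 73.0 in NGFC, 53.7 in PVALB, 51.4 in TH, 35.95 in newly formed oligodendrocytes, 22.6 in OPCs and 20.6 in SST cells, with 5.41 in mature oligodendrocytes. In pooled WT endothelial cells, of which there were few, Hbegf stood at 131. Of the other lists, Cspg5, a transmembrane proteoglycan with an EGF-like domain, stood at 2137 in OPCs (SD 908) and 1405 in astrocytes, but at 38.1 in newly formed and 18.3 in mature oligodendrocytes. Gab1 was higher along the lineage, at 59.5 in OPCs, 105 in newly formed and 198 in mature oligodendrocytes, and under 8 in each interneuron class. Bace1, a protease that cleaves Nrg1, stood at 202 in mature and 173 in newly formed oligodendrocytes and between 64.7 and 77.6 in the interneuron classes.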
